A study of Mus musculus with 6 samples.

Results

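The mitotic and kinetochore genes of the mouse aorta were read here as 52 named genes with roles in mitotic entry, the spindle, the kinetochore or cytokinesis. The rule takes them by symbol and uses no measured value, though the list was drawn up with earlier results of these data known. All 52 were found by symbol among the 55335 genes of the count table, and all 52 were among the 16612 genes with enough counts to be tested. The study set the aorta of 6-week-old mice (young) against that of 6-month-old mice (aged) in bulk RNA sequencing. The mice were wild-type C57BL/6 animals, described as male in the study's methods, with no other allele, treatment or agent in either group, and each group had 3 libraries. By the labels the groups differ in age alone, though young replicate 1 had sex-linked counts unlike all other libraries. In a mouse 6 months is adult rather than old age. The samples hold all cells of the dissected vessel, so that more cells of a type and more RNA per cell cannot be told apart.

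A cell that divides passes from DNA replication through G2 into mitosis, when cyclin-dependent kinase 1 with its cyclins drives chromosome condensation and spindle assembly. Kinetochores, protein assemblies built on centromeric chromatin, tie each chromosome to spindle microtubules, and the spindle checkpoint holds back the anaphase-promoting complex until all are attached. Securin and the B cyclins are then degraded, separase opens the cohesin rings, and the central spindle guides cytokinesis. Most of these genes are transcribed in late S phase and G2 and are silent in resting cells, and smooth muscle cells and endothelium of the adult aorta divide rarely. A DNA element called the cell cycle genes homology region (CHR), with the core TTTGAA, binds the MuvB complex in many of their promoters, often close to a CCAAT box bound by NF-Y.

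Promoter windows from RefSeq (GRCm38.p6), from 250 bases before to 50 bases after each annotated start, matched 41 of the 52 genes by symbol with 43 windows. TTTGAA on either strand lay in the windows of 30 of 41 genes (73.2%), against 20.2% of all 27025 symbols in the same table. Between 50 bases before and 50 after the start, a range chosen after the positions were seen, 28 of 41 genes (68.3%) had it, against 5.72% of all symbols. CCAAT on either strand was found for 29 of 41 genes (70.7%) against 41.1%, and at least 2 copies for 19 genes (46.3%) against 13.3%. Both motifs were in the windows of 26 genes (63.4%), against 7.97% of all symbols. The E2F motif GGCGGGAA was found for 0 of 41 genes, against 2.52% of all symbols, which says only that these letters are not in the windows. There were 2 places in the members' windows where motif matches overlapped each other. These are matches of letters and show no binding in the aorta.

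**Figure D1:**
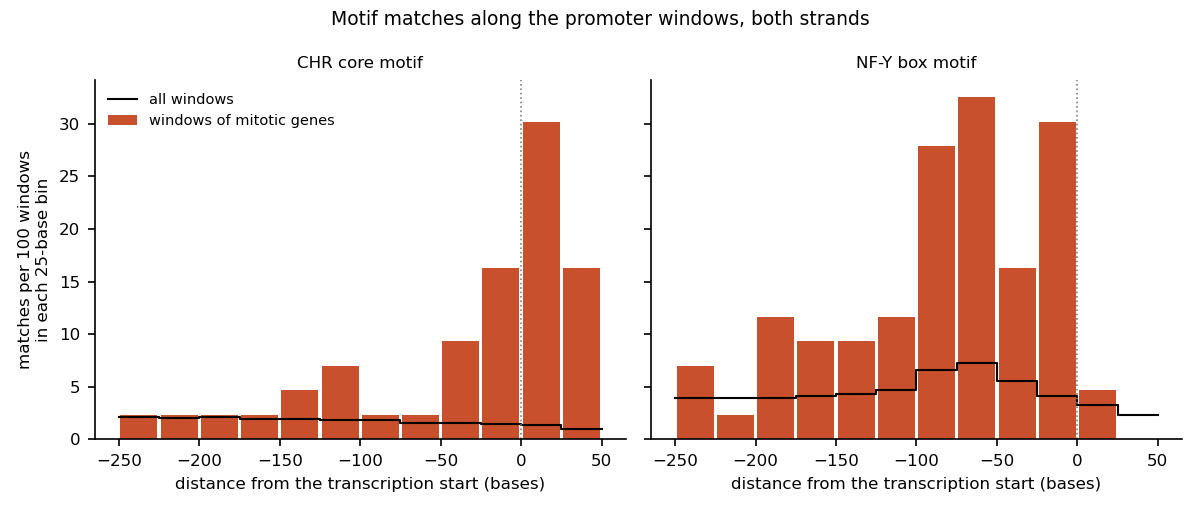
Matches of the CHR core (left) and of the box bound by NF-Y (right) per 100 promoter windows in bins of 25 bases, by distance from the transcription start, for 43 windows of mitotic genes (bars) and all 32851 windows (line). CHR matches of the mitotic genes crowd around the start, with 30.2 per 100 windows in the first 25 bases after it against 1.31 over all windows, while the NF-Y box lies mostly within the 100 bases before it.

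Of 19 genes whose 200 bases before the start hold no annotated exon, 7 are printed to show both motif layouts and their absence, namely the 5 with the smallest p in the comparison of ages and the 2 most abundant of the others. All run 5′ to 3′ on the strand of the gene and end at the base before the start. Capitals mark TTTGAA and CCAAT, or TTCAAA and ATTGG where the motif lies on the other strand. Ccnb2 (chr9:70421555-70421754, minus strand) has 3 CCAAT boxes at near-equal spacing, a layout known from cyclin B2 promoters. Mki67 (chr7:135716380-135716579, minus strand) holds 3 boxes and a pair of TTTGAA copies, and Top2a (chr11:99024190-99024389, minus strand) has 5 boxes in the stretch shown. Kif23 (chr9:61946800-61946999, minus strand) has 1 box next to the start. Nuf2 (chr1:169531465-169531664, minus strand) has neither motif, Smc2 (chr4:52439021-52439220, plus strand) has 1 of each, and Anln (chr9:22389207-22389406, minus strand) has neither before the start.
Ccnb2: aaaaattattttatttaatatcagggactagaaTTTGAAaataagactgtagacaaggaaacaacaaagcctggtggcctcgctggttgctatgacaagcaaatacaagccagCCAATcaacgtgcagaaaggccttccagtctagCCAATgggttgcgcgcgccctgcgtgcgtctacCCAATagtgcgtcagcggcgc
Mki67: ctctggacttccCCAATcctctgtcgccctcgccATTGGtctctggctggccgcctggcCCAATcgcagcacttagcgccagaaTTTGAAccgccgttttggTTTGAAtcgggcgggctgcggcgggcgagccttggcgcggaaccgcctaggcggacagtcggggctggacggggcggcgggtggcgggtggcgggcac
Top2a: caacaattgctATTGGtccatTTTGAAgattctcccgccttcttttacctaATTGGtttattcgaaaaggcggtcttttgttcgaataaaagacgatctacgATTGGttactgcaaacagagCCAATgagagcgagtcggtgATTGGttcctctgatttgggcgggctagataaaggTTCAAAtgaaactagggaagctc
Kif23: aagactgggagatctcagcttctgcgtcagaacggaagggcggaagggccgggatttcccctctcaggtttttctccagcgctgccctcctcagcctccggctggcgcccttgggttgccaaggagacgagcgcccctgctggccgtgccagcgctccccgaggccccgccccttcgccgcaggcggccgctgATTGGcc
Nuf2: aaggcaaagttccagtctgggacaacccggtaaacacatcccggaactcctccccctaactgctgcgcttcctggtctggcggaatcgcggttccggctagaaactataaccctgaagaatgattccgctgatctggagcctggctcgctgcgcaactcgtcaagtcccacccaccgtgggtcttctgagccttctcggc
Smc2: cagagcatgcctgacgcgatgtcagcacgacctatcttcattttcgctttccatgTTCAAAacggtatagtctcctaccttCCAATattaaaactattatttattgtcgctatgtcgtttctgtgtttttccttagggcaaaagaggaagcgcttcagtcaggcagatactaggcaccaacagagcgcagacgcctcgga
Anln: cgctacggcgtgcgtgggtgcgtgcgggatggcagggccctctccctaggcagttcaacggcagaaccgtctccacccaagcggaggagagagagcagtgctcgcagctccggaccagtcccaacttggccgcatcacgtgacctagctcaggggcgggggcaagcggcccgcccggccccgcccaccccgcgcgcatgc

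Reads counted on genes summed to between 31049632 and 45832185 per library. Values are given as CPM, read counts scaled to a common library size by edgeR's TMM method, in the order of replicates 1, 2 and 3, and levels of mitotic genes are compared with each other only as FPKM, which also divides by length. The library labelled young replicate 1 stood apart, since the X-linked RNA Xist had 14806 counts there and between 7 and 24 in the others. The Y-linked genes Ddx3y, Eif2s3y, Kdm5d and Uty had 53, 41, 7 and 5 counts there, and at least 1488, 1593, 519 and 209 in every other library. These counts are unlike those of a male sample, although the methods describe male mice, and the labels give no sex. Aged replicate 2 stood apart by brown adipocyte markers. Smooth muscle markers, which define the labelled tissue, were present in all libraries, with Acta2 at a mean of 15377 and 13433 CPM and Myh11 at 8974 and 6617 CPM in young and aged aorta. Genes of the mitochondrial genome took 14.9% to 21.2% of the counts in young and 23.1% to 30.4% in aged libraries. The results are given below with and without the 2 libraries named.

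The mitotic genes were rare transcripts in both groups. Their mean FPKM over all libraries had a median of 0.295 and lay under 1 for 46 of the 52. It ran from 0.0406 for Kif15, a spindle kinesin, to 21.9 for Pttg1, which encodes securin. The median count of the 52 genes in a library was 26.5 to 30.5 in young and 55.5 to 64 in aged aorta, so that single values carry a large counting error. At 0.298 CPM, the level that 3 libraries had to reach for a gene to be tested, 34 members passed in all 6 libraries. For 18 members fewer than 3 young libraries reached this level, against 3 members for the aged libraries, so part of the list was tested only through the group in which it was higher. There were 5 members with at least 1 library at 0 counts.

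In aged aorta 49 of the 52 genes (94.2%) had a higher fitted mean than in young aorta, against 52.1% of all genes tested. The median log2 fold change of the 52 was 1.22, beside 0.02 over all genes, and 34 exceeded 1. At an unadjusted p below 0.05 by edgeR's quasi-likelihood test, 22 members (42.3%) were higher in aged aorta, against 5.56% of all genes, and 0 were lower, against 4.82%. All 3 aged libraries lay above all 3 young libraries for 28 members (53.8%), against 7.74% of all genes, and below them for 0, against 8.78%. Of the 22, Ccnb1, Ccnb2, Melk, Pbk, Bub1, Cenpe, Ndc80, Spc25, Aspm and Ncapg reached the filter level in fewer than 3 young libraries. So did Ccnb1, Ccnb2, Pbk, Bub1, Cenpe, Cenpf, Spc25, Kif2c, Dlgap5 and Ncapg of the 28, and the shares were not corrected for this. The members were tested together with all genes, and after Benjamini-Hochberg adjustment edgeR called 0 of the 52, as it called 0% of the 16612 genes. Adjusted p ran from 0.339 to 0.980 over the members, and 1723 of all genes had an unadjusted p below 0.05. DESeq2's Wald test called 6 of the 43 members that it gave an adjusted p (14.0%), against 2.26% of all genes, namely Ccna2, Ccnb2, Ube2c, Kif22, Mki67 and Top2a. Limma on log2 FPKM called 0 members and 0 genes, with 44 or 45 members higher for a pseudocount of 0.1 or 1, and Mad2l1, Pttg1, Incenp and Ect2 were lower there under both and Bub1b under the first. Directions below are those of edgeR. The members are transcribed together in dividing cells, so that their counts are not independent observations.

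**Figure D2:**
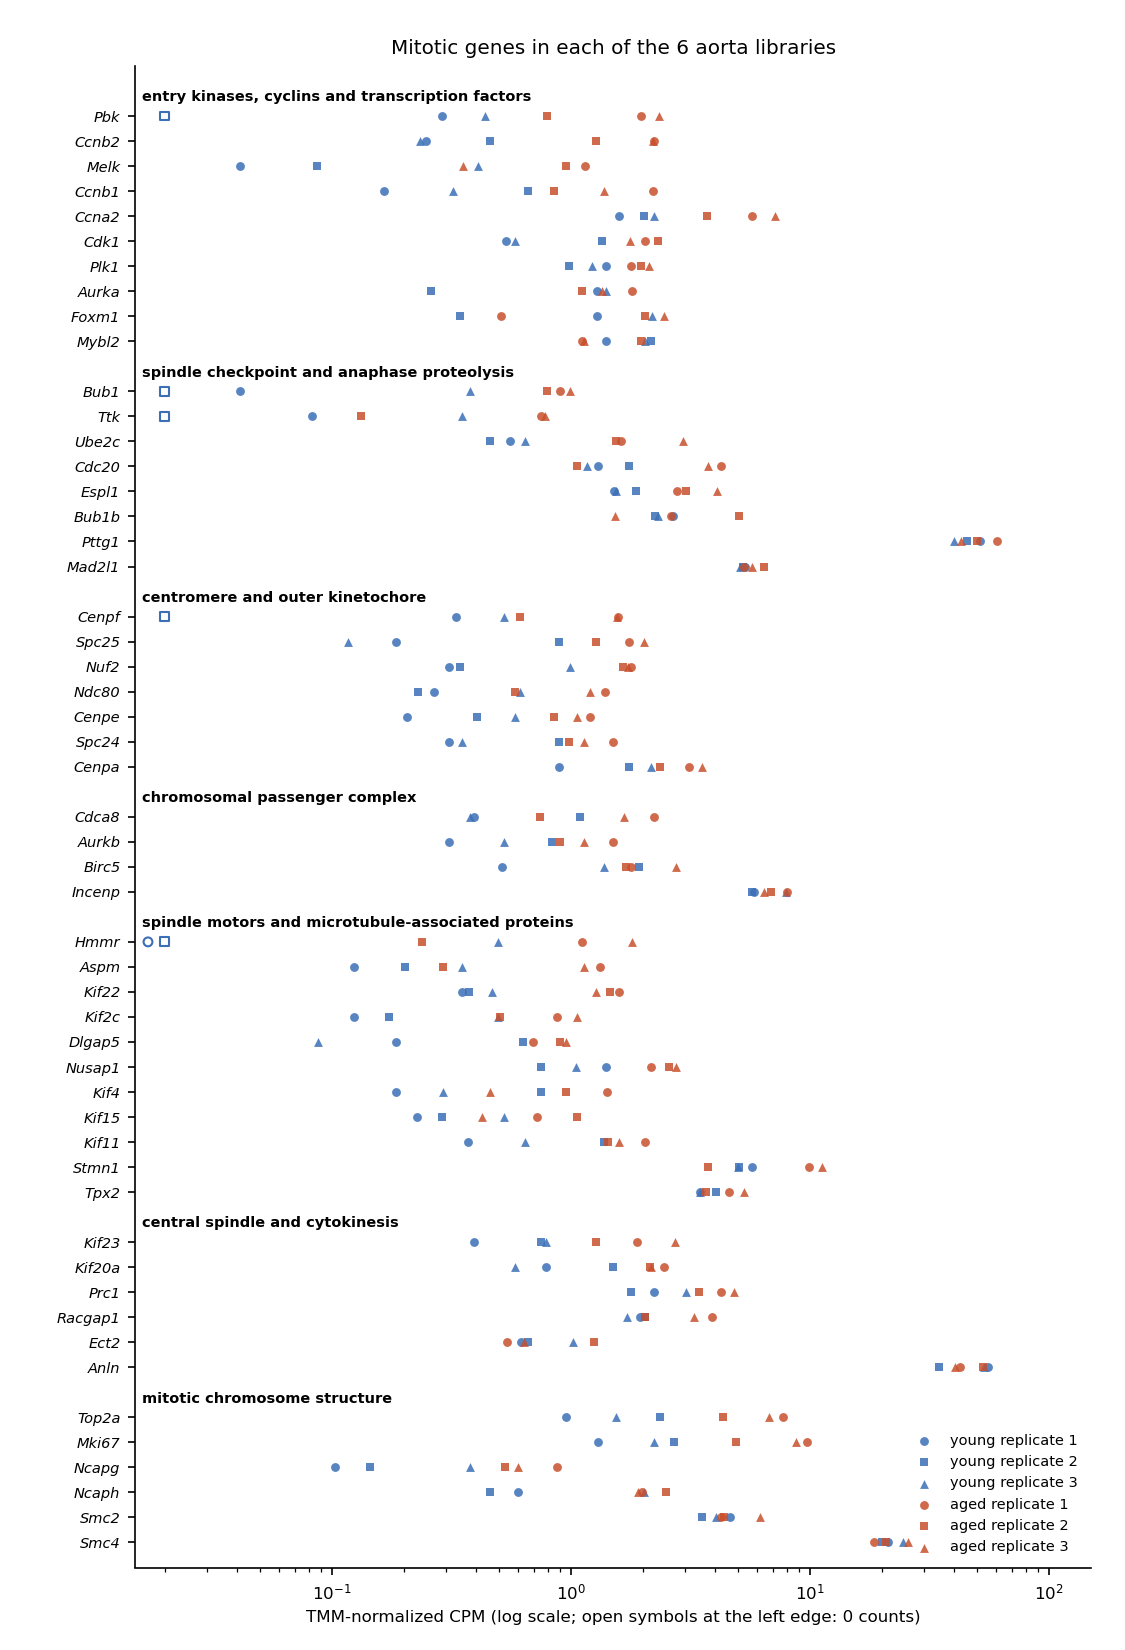
TMM-normalized CPM (log axis) of each mitotic gene in the 3 young (blue) and 3 aged (orange) libraries, grouped by role, with open symbols at the left edge for 0 counts. For 28 of the 52 genes every aged library lies to the right of every young library, while Pttg1, Anln and Smc4, the most abundant, overlap.

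Summed over the 52 genes, the level was 183, 163 and 186 CPM in young and 250, 220 and 241 CPM in aged aorta, or 177.5 ± 12.4 against 237 ± 15.2 CPM (SD, n = 3 each). Pttg1, Anln and Smc4 alone held 61.1% to 70.0% of the members' counts in young and 45.2% to 56.0% in aged libraries. The 8 most abundant members by FPKM had a median log2 fold change of 0.23, with 6 higher, 1 at an unadjusted p below 0.05 and 1 without overlap. Over the other 44 the median was 1.31, with 43 higher, 21 at an unadjusted p below 0.05 and 27 without overlap. Their summed level was 37.1, 44.9 and 48.5 CPM in young and 96.02, 78.0 and 98.1 CPM in aged aorta, a ratio of the means of 2.08. Every aged library was above every young library in this sum, and aged replicate 2 was the lowest of the aged group. The 18 members with fewer than 3 young libraries over the filter level were all among these 44, so these low members entered the fit mainly through the aged libraries.

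**Figure D3:**
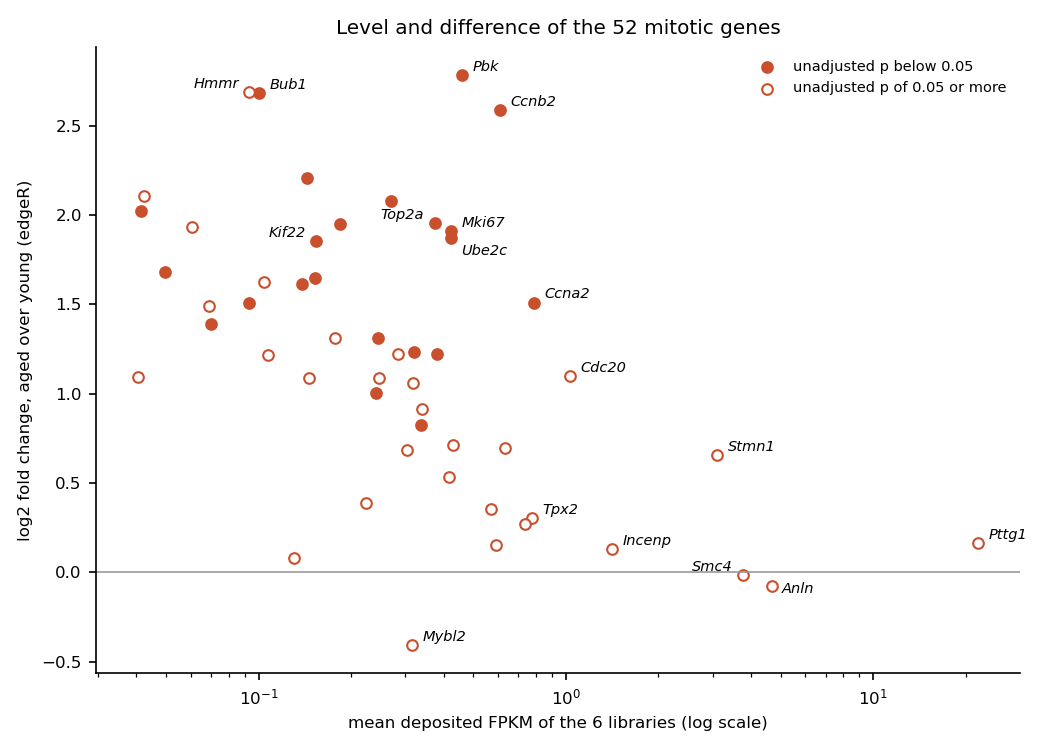
Log2 fold change of aged over young aorta against mean FPKM (log axis) for the 52 mitotic genes, filled where the unadjusted p was below 0.05. The genes above an FPKM of 1 lie between -0.08 and 1.10, and all members with a log2 fold change above 2 lie below an FPKM of 1.

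Aged replicates 1 and 3 gave the highest value of the 6 libraries for 23 and 21 members, and aged replicate 2 for 6. Young replicate 1 was lowest for 23 members, young replicate 2 for 15 and young replicate 3 for 8. Within the aged group, replicate 2 was lowest for 32 of the 52. Without young replicate 1, 49 members were higher (median log2 fold change 1.06), and 9 had an unadjusted p below 0.05. Without aged replicate 2, 48 were higher with a median of 1.26 and 20 had such a p, while edgeR called 110 genes (0.642%), 0 of them members. Without aged replicate 1 or aged replicate 3, 9 and 11 members had an unadjusted p below 0.05. With both young replicate 1 and aged replicate 2 left out, 47 were higher with a median of 1.12, and 12 had such a p. There were 46 members higher in every one of the 6 fits that left out a single library, and 7 that kept an unadjusted p below 0.05 in each of them, namely Ccna2, Ccnb2, Ube2c, Kif22, Nusap1, Mki67 and Top2a. The lowest adjusted p of any member in these fits was 0.0639.

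The kinases, cyclins and transcription factors of mitotic entry held 10 members, of which 9 were higher in aged aorta, 6 with an unadjusted p below 0.05 and 6 without overlap of the groups, at a median log2 fold change of 1.41. Over all genes tested, 5.56% were higher at such a p and 7.74% without overlap. Of the genes at such a p, Ccnb1, Ccnb2, Melk and Pbk reached the filter level in fewer than 3 young libraries. Cdk1, the kinase whose activity defines mitosis, was at 0.537, 1.35 and 0.583 CPM in young and 2.05, 2.31 and 1.77 CPM in aged aorta (log2 fold change 1.31, SE 0.49, unadjusted p = 0.0295). Ccna2, the A-type cyclin of S phase and G2, was at 1.59, 2.01 and 2.21 CPM in young and 5.72, 3.71 and 7.15 CPM in aged aorta (log2 fold change 1.51, SE 0.34, unadjusted p = 0.00255). Even the lowest aged library held more Ccna2 than the highest young library, and DESeq2 called it with an adjusted p of 0.00769. Ccnb1, the main cyclin partner of Cdk1, was at 0.165, 0.661 and 0.321 CPM in young and 2.2, 0.848 and 1.38 CPM in aged aorta (log2 fold change 1.95, SE 0.67, unadjusted p = 0.0213). Its young replicate 2 and aged replicate 2 came close to each other, and the other libraries were well apart. Ccnb2, the B-type cyclin whose promoter is printed above, was at 0.248, 0.46 and 0.233 CPM in young and 2.23, 1.27 and 2.19 CPM in aged aorta (log2 fold change 2.59, SE 0.52, unadjusted p = 0.00137), a ratio of 6.02. It had the lowest p of the 52 genes and an adjusted p of 0.339 from edgeR and 0.00191 from DESeq2. A processed copy, Ccnb2-ps, had 163, 83 and 106 counts in young and 113, 90 and 59 in aged aorta, more than Ccnb2 itself in each library but aged replicate 3, and how reads matching both were counted is not given. With both added together, an alternative chosen after the data were seen, the log2 fold change was 0.47, so the value of Ccnb2 is uncertain.

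Pbk, a serine/threonine kinase active in mitosis, was at 0.289, 0 and 0.437 CPM in young and 1.96, 0.795 and 2.34 CPM in aged aorta (log2 fold change 2.78, SE 1.04, unadjusted p = 0.0301). Melk, a kinase of the AMPK-related family that is abundant in dividing cells, was at 0.0413, 0.0862 and 0.408 CPM in young and 1.14, 0.954 and 0.354 CPM in aged aorta (log2 fold change 2.21, SE 0.93, unadjusted p = 0.0484). Melk overlapped, since aged replicate 3 lay below young replicate 3, whereas Pbk did not and had no counts in young replicate 2. Plk1, the polo-like kinase of centrosome maturation and mitotic entry, was at 1.4, 0.977 and 1.22 CPM in young and 1.78, 1.96 and 2.12 CPM in aged aorta (log2 fold change 0.70, SE 0.35, unadjusted p = 0.0886). Its groups did not overlap, yet its p missed 0.05. Aurka, the centrosomal Aurora kinase, had a log2 fold change of 0.53 (SE 0.64) with overlapping groups. The transcription factor Foxm1 had a log2 fold change of 0.39 (SE 0.78), negative without young replicate 2, and Mybl2, the B-Myb partner of MuvB, one of -0.41 (SE 0.41). Mybl2 was the member with the lowest fold change, and its libraries were at 1.4, 2.16 and 2.04 CPM in young and 1.11, 1.96 and 1.13 CPM in aged aorta.

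Among the 8 genes of the spindle checkpoint and of anaphase proteolysis all were higher in aged aorta, 3 with an unadjusted p below 0.05, at a median log2 fold change of 1.05. The share of all genes tested that were higher at such a p was 5.56%. Ube2c, the ubiquitin-conjugating enzyme of the anaphase-promoting complex, was at 0.557, 0.46 and 0.641 CPM in young and 1.62, 1.54 and 2.94 CPM in aged aorta (log2 fold change 1.87, SE 0.45, unadjusted p = 0.00408). All aged libraries held more than 2 times the highest young value, and DESeq2 gave an adjusted p of 0.0238. Ube2c shares 592 exonic bases with Tnnc2 on the opposite strand, which had 10 to 42 counts in young and 26 to 79 in aged libraries, and whether the counting used strand is not given. Espl1, separase, the protease that cleaves cohesin, was at 1.51, 1.87 and 1.54 CPM in young and 2.77, 3.02 and 4.07 CPM in aged aorta (log2 fold change 1.00, SE 0.32, unadjusted p = 0.0155), with groups that did not overlap. Bub1, a checkpoint kinase of the kinetochore, was at 0.0413, 0 and 0.379 CPM in young and 0.903, 0.795 and 0.991 CPM in aged aorta (log2 fold change 2.68, SE 1.12, unadjusted p = 0.0467). Its young values rest on 2, 0 and 13 counts. Cdc20, the activator of the anaphase-promoting complex, was at 1.3, 1.75 and 1.17 CPM in young and 4.24, 1.06 and 3.75 CPM in aged aorta (log2 fold change 1.10, SE 0.54, unadjusted p = 0.0814). Here aged replicate 2 was the lowest of all libraries, and aged replicates 1 and 3 the highest.

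Pttg1, securin, was at 51.5, 45.4 and 40.2 CPM in young and 60.8, 49.8 and 42.9 CPM in aged aorta (log2 fold change 0.16, SE 0.18, unadjusted p = 0.401). It was by far the most abundant member per length, at an FPKM of 21.9 against 4.67 for the next, Anln, and its groups overlapped. The checkpoint proteins Mad2l1 (Mad2), Bub1b (BubR1) and Ttk (Mps1) had log2 fold changes of 0.15 (SE 0.21), 0.35 (SE 0.46) and 1.93 (SE 1.20), all with overlapping groups, and that of Bub1b was negative without aged replicate 2. Ttk had 4, 0 and 12 counts in young and 25, 5 and 22 in aged libraries.

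The centromere and the outer kinetochore contributed 7 members, all of them higher in aged aorta, 4 with an unadjusted p below 0.05 and 6 without overlap, at a median log2 fold change of 1.51. Among all genes tested, 5.56% were higher at such a p and 7.74% without overlap. Cenpe, Ndc80 and Spc25 of the 4, and Cenpe, Cenpf and Spc25 of the 6, reached the filter level in fewer than 3 young libraries. The Ndc80 complex, the rod that binds the microtubule end, is encoded by 4 of the 7 members. Nuf2 was at 0.31, 0.345 and 0.991 CPM in young and 1.78, 1.64 and 1.73 CPM in aged aorta (log2 fold change 1.65, SE 0.57, unadjusted p = 0.0215), and its 3 aged libraries were almost equal. Spc25 was at 0.186, 0.891 and 0.117 CPM in young and 1.75, 1.27 and 2.02 CPM in aged aorta (log2 fold change 2.08, SE 0.79, unadjusted p = 0.0322). Spc24 was at 0.31, 0.891 and 0.35 CPM in young and 1.5, 0.981 and 1.13 CPM in aged aorta (log2 fold change 1.22, SE 0.57, unadjusted p = 0.0685). For both, young replicate 2 lay near the aged libraries and the other young libraries far below. Ndc80 itself was at 0.268, 0.23 and 0.612 CPM in young and 1.38, 0.583 and 1.2 CPM in aged aorta (log2 fold change 1.51, SE 0.62, unadjusted p = 0.0443), with aged replicate 2 just below young replicate 3. All 4 subunits thus had higher means in aged aorta, with log2 fold changes between 1.22 and 2.08.

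Cenpe, the kinesin that carries chromosomes to the spindle equator, was at 0.206, 0.402 and 0.583 CPM in young and 1.2, 0.848 and 1.06 CPM in aged aorta (log2 fold change 1.39, SE 0.55, unadjusted p = 0.039). Cenpa, the histone H3 variant that marks centromeres, was at 0.888, 1.75 and 2.16 CPM in young and 3.13, 2.36 and 3.54 CPM in aged aorta (log2 fold change 0.91, SE 0.42, unadjusted p = 0.064). Cenpf, a large coiled-coil protein of the kinetochore corona, was at 0.33, 0 and 0.524 CPM in young and 1.56, 0.61 and 1.56 CPM in aged aorta (log2 fold change 2.11, SE 1.05, unadjusted p = 0.0842). None of these overlapped between the groups, and young replicate 1 or 2 gave the lowest value of each.

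The chromosomal passenger complex corrects wrong attachments and moves to the central spindle in anaphase. All 4 of its members were higher in aged aorta at a median log2 fold change of 0.90, and 0 had an unadjusted p below 0.05. Aurkb, its kinase, was at 0.31, 0.833 and 0.524 CPM in young and 1.5, 0.901 and 1.13 CPM in aged aorta (log2 fold change 1.09, SE 0.54, unadjusted p = 0.0811), with young replicate 2 only slightly below the lowest aged library. Cdca8 (borealin) and Birc5 (survivin) had log2 fold changes of 1.31 (SE 0.65) and 0.71 (SE 0.54). Incenp, the scaffold of the complex, was at 5.82, 5.72 and 7.95 CPM in young and 8.03, 6.84 and 6.44 CPM in aged aorta (log2 fold change 0.13, SE 0.24, unadjusted p = 0.6005). With an FPKM of 1.41 it was the most abundant of the 4 and differed least.

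The 11 spindle motors and microtubule-associated proteins were all higher in aged aorta, 3 with an unadjusted p below 0.05 and 5 without overlap, at a median log2 fold change of 1.22. The shares of all genes tested were 5.56% higher at such a p and 7.74% higher without overlap. Kif22, a chromokinesin that pushes chromosome arms outward, was at 0.351, 0.374 and 0.466 CPM in young and 1.59, 1.46 and 1.27 CPM in aged aorta (log2 fold change 1.86, SE 0.43, unadjusted p = 0.00338). Its replicates lay close together in both groups, and DESeq2 called it with an adjusted p of 0.0249. Nusap1, which bundles microtubules near chromosomes, was at 1.4, 0.747 and 1.05 CPM in young and 2.17, 2.57 and 2.76 CPM in aged aorta (log2 fold change 1.22, SE 0.38, unadjusted p = 0.0143), without overlap. It shares 172 exonic bases with Oip5 on the opposite strand. Oip5 had 25, 0 and 0 counts in young and 24, 29 and 17 in aged libraries, fewer than Nusap1 in each. Aspm, a protein of the spindle poles, was at 0.124, 0.201 and 0.35 CPM in young and 1.32, 0.292 and 1.13 CPM in aged aorta (log2 fold change 2.02, SE 0.76, unadjusted p = 0.031). Aged replicate 2 lay among the young libraries for Aspm.

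Kif11, the kinesin that drives the poles apart, was at 0.372, 1.38 and 0.641 CPM in young and 2.05, 1.43 and 1.59 CPM in aged aorta (log2 fold change 1.09, SE 0.56, unadjusted p = 0.0918). Kif2c, which takes apart microtubule ends to free wrong attachments, was at 0.124, 0.172 and 0.495 CPM in young and 0.873, 0.504 and 1.06 CPM in aged aorta (log2 fold change 1.62, SE 0.71, unadjusted p = 0.0537). Dlgap5, which stabilizes the fibres between pole and kinetochore, was at 0.186, 0.632 and 0.0874 CPM in young and 0.692, 0.901 and 0.956 CPM in aged aorta (log2 fold change 1.49, SE 0.76, unadjusted p = 0.0891). The groups did not overlap for these 3 genes, but single young libraries came close to the aged ones. Hmmr, a pole protein first known as a hyaluronan receptor, had 0, 0 and 17 counts in young and 37, 9 and 51 counts in aged aorta and a log2 fold change of 2.69 (SE 1.52), the largest SE of the members. The kinesins Kif4 and Kif15 had log2 fold changes of 1.22 (SE 0.71) and 1.09 (SE 0.61), with overlapping groups. Kif4 shares 832 exonic bases with Pdzd11 on the opposite strand, which had 678 to 1160 counts in young and 705 to 1120 in aged libraries.

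Among the more abundant of these genes, Tpx2, which activates Aurora A on spindle microtubules, was at 3.45, 4.05 and 3.47 CPM in young and 4.57, 3.66 and 5.31 CPM in aged aorta (log2 fold change 0.30, SE 0.26, unadjusted p = 0.284). Stmn1, which destabilizes microtubules and is also made by cells that do not divide, was at 5.72, 5.03 and 5.01 CPM in young and 9.9, 3.74 and 11.2 CPM in aged aorta (log2 fold change 0.66, SE 0.40, unadjusted p = 0.145). Aged replicates 1 and 3 were far above the young libraries for Stmn1, and aged replicate 2 was below all of them.

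**Figure D4:**
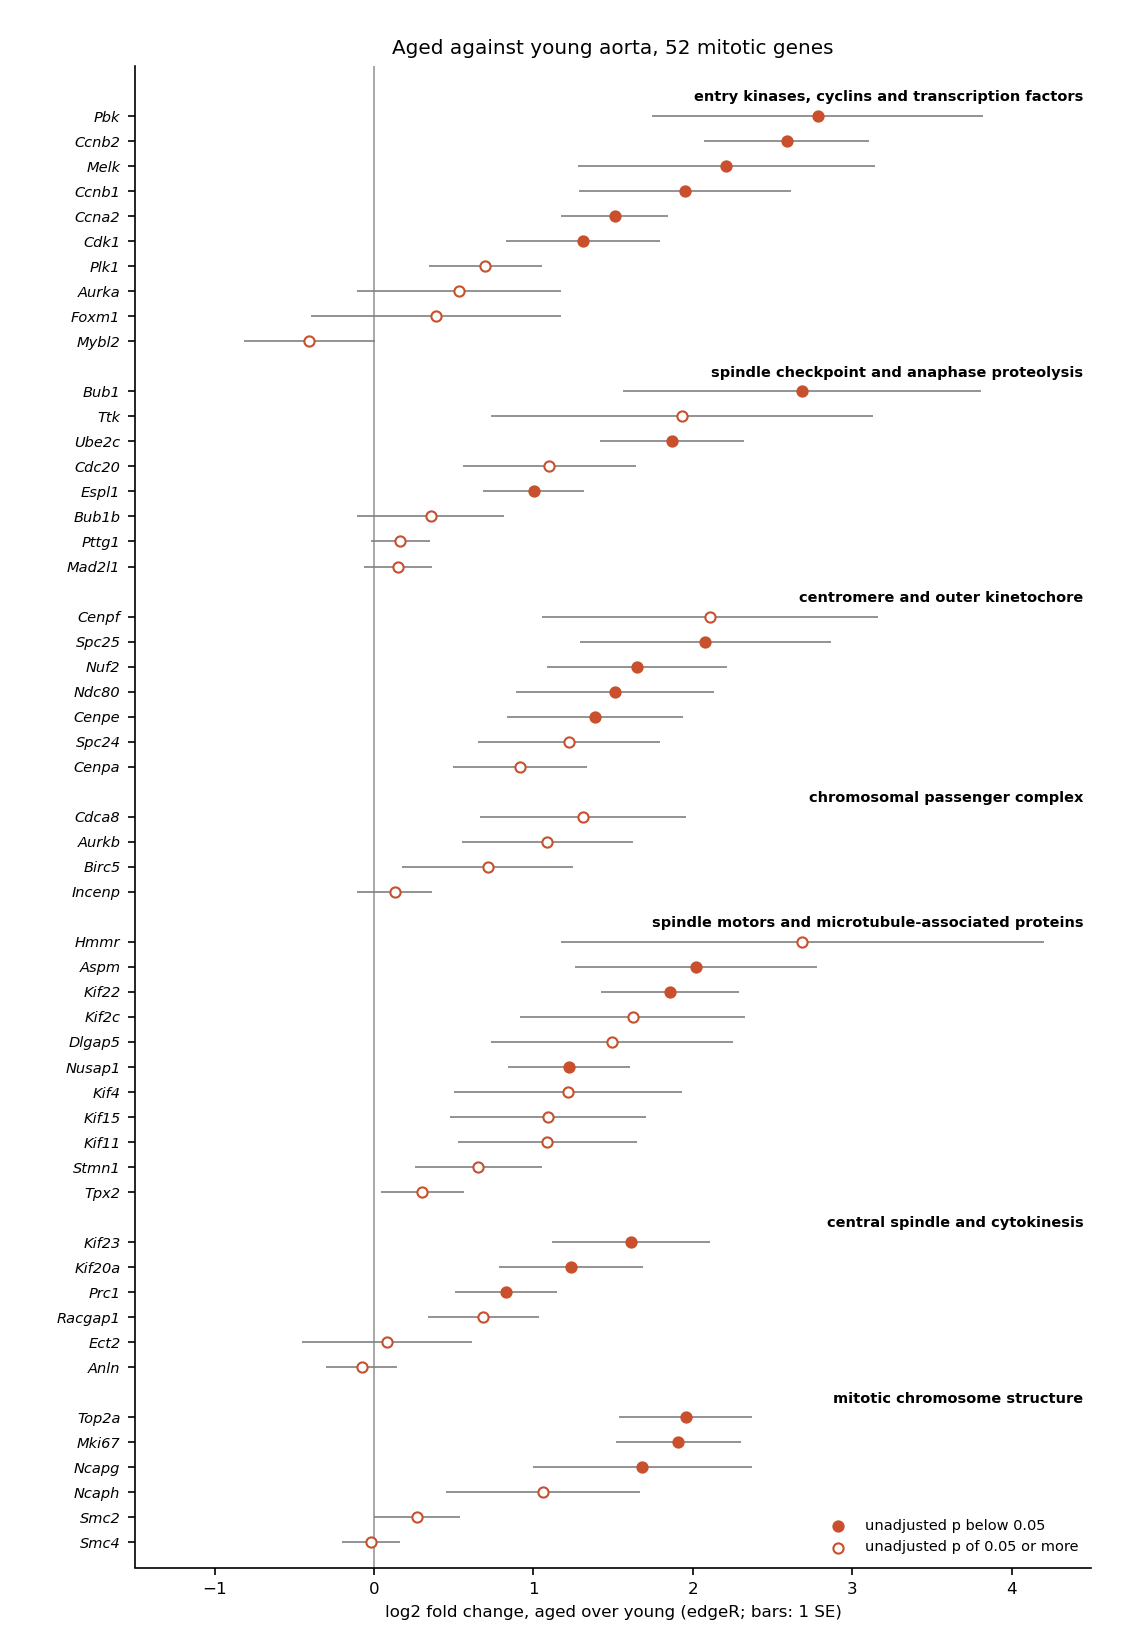
Log2 fold change of aged over young aorta with its standard error for each mitotic gene (edgeR, 3 libraries per group), grouped by role and filled where the unadjusted p was below 0.05. All but Mybl2, Anln and Smc4 lie above 0, and the passenger complex has no filled point.

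For the central spindle and cytokinesis 5 of 6 genes were higher in aged aorta, 3 with an unadjusted p below 0.05 and 4 without overlap, at a median log2 fold change of 0.76. Across all genes tested, 5.56% were higher at such a p and 7.74% without overlap. Kif23, a kinesin subunit of centralspindlin, was at 0.392, 0.747 and 0.787 CPM in young and 1.9, 1.27 and 2.73 CPM in aged aorta (log2 fold change 1.61, SE 0.50, unadjusted p = 0.0134). Racgap1, its partner in centralspindlin, was at 1.94, 2.04 and 1.72 CPM in young and 3.88, 2.04 and 3.26 CPM in aged aorta (log2 fold change 0.69, SE 0.35, unadjusted p = 0.0886). Neither overlapped between the ages, although young replicate 2 and aged replicate 2 were nearly equal for Racgap1, and the difference between these partners was not tested. Kif20a, the kinesin that brings Aurora B to the central spindle, was at 0.784, 1.49 and 0.583 CPM in young and 2.44, 2.15 and 2.16 CPM in aged aorta (log2 fold change 1.24, SE 0.45, unadjusted p = 0.0281). Prc1, which bundles antiparallel microtubules, was at 2.23, 1.78 and 3.03 CPM in young and 4.24, 3.45 and 4.81 CPM in aged aorta (log2 fold change 0.83, SE 0.32, unadjusted p = 0.0343). Kif20a and Prc1 share 1271 and 911 exonic bases with Cdc23 and Rccd1 on the opposite strand. Cdc23 had 2483, 1475 and 1855 counts in young and 1345, 1715 and 1295 in aged aorta, far more than Kif20a. For Rccd1 the counts were 668, 761 and 755 in young and 295, 647 and 386 in aged aorta.

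Anln, the scaffold of the contractile ring that is also made by some cells outside division, was at 55.5, 34.5 and 53.2 CPM in young and 42.3, 52.9 and 40.3 CPM in aged aorta (log2 fold change -0.08, SE 0.22, unadjusted p = 0.735). Ect2, the exchange factor that activates RhoA at the furrow, was at 0.08 (SE 0.53) on the log2 scale. Both had groups that overlapped throughout, and the sign of each turned when single libraries were left out.

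Of the 6 genes of mitotic chromosome structure 5 were higher in aged aorta, 3 with an unadjusted p below 0.05 and 3 without overlap, at a median log2 fold change of 1.37. Among all genes tested, 5.56% were higher at such a p and 7.74% without overlap. Mki67, which coats mitotic chromosomes and is the usual marker of cycling cells, lies on chromosome 7 of GRCm38 from 135689784 to 135716361 and was at 1.3, 2.7 and 2.21 CPM in young and 9.72, 4.9 and 8.71 CPM in aged aorta (log2 fold change 1.91, SE 0.39, unadjusted p = 0.00164). Top2a, the topoisomerase that separates linked sister DNA, lies on chromosome 11 from 98992943 to 99024189 and was at 0.949, 2.36 and 1.54 CPM in young and 7.7, 4.32 and 6.76 CPM in aged aorta (log2 fold change 1.96, SE 0.42, unadjusted p = 0.00202). The lowest aged library exceeded the highest young library for both by a wide margin, and DESeq2 gave adjusted p of 0.00151 and 0.00231. As mean and SD, Mki67 was at 2.07 ± 0.711 CPM in young and 7.78 ± 2.54 CPM in aged aorta and Top2a at 1.62 ± 0.706 CPM in young and 6.26 ± 1.75 CPM in aged aorta (n = 3 each).

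Condensin, the ring that compacts chromosomes, is built from Smc2 and Smc4 with sets of other subunits. Ncapg, a subunit of condensin I, was at 0.103, 0.144 and 0.379 CPM in young and 0.873, 0.53 and 0.602 CPM in aged aorta (log2 fold change 1.68, SE 0.69, unadjusted p = 0.0429), on counts of 5, 5 and 13 in young and 29, 20 and 17 in aged libraries. Ncaph, the subunit that closes the ring of condensin I, was at a log2 fold change of 1.06 (SE 0.61), with overlapping groups. Smc4, which both condensins share, was at 21.2, 19.97 and 24.4 CPM in young and 18.5, 20.7 and 25.7 CPM in aged aorta (log2 fold change -0.02, SE 0.18, unadjusted p = 0.927). Smc2, its partner, had a log2 fold change of 0.27 (SE 0.27). The groups overlapped for both genes of the shared core, and the sign of Smc4 turned in the fits that lacked young replicate 3, aged replicate 1 or aged replicate 2. Ncapg shares 944 exonic bases with Lcorl on the opposite strand, and Ccna2 510 with Exosc9. Lcorl had 143 to 216 counts in young and 118 to 260 in aged libraries, more than Ncapg in each. Exosc9 had 590 to 1043 counts in young and 605 to 875 in aged libraries, more than Ccna2 in each.

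Other genes of division and of the cycle, from lists written with these data known, gave the setting of these values. Of 71 other mitotic genes tested, 49 were higher (median log2 fold change 0.30), 8 of them at an unadjusted p below 0.05 against 2 that were lower at such a p. Over all genes tested, 5.56% were higher and 4.82% lower at such a p. Of the 8, Cdc25c, Cenpm, Depdc1a, Iqgap3 and Sgo1 reached the filter level in fewer than 3 young libraries. The share was not corrected for this. Knstrn, a kinetochore protein of the spindle, had 56, 20 and 14 counts in young and 111, 93 and 68 counts in aged aorta (log2 fold change 1.92, SE 0.49, unadjusted p = 0.00501). Ckap2, a spindle protein, had 14, 16 and 15 counts in young and 75, 39 and 52 counts in aged aorta (log2 fold change 2.11, SE 0.50, unadjusted p = 0.00382). DESeq2 called both, with adjusted p of 0.0213 and 0.0209. Cdc25c, the phosphatase that activates Cdk1, had 0, 0 and 0 counts in young and 21, 14 and 19 counts in aged aorta. It was thus tested only through the aged libraries. With 3 counts set for each young library, a floor chosen for this ratio alone, the aged mean was 7.11 times the young one. This ratio leaves out the counting error of the aged libraries. Cenpb and Tubb4b, the highest of this list in CPM, had log2 fold changes of 0.31 and -0.19, the latter positive without young replicate 1. Subunits of the anaphase-promoting complex, which work outside mitosis as well, had 7 of 16 higher at a median of -0.04 and 0 at an unadjusted p below 0.05. Of these, Anapc5, Anapc16 and Anapc13 had the smallest p (-0.39, 0.31 and 0.34 on the log2 scale), and Anapc2 was at 0.01, with a sign that turned in several alternatives.

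The list of DREAM, MuvB, E2F and NF-Y genes had 9 of 20 higher at a median log2 fold change of -0.07, with 0 higher and 2 lower at an unadjusted p below 0.05. Whether 2 of 20 exceeds the 4.82% of all genes that were lower at such a p was not tested. The lower ones were Nfya, a subunit of NF-Y, at 42.1 ± 10.3 CPM in young and 24.9 ± 2.89 CPM in aged aorta (log2 fold change -0.76, SE 0.21, unadjusted p = 0.00801), and Rbl1 (p107), at 3.93 ± 0.261 CPM in young and 2.22 ± 0.408 CPM in aged aorta (log2 fold change -0.82, SE 0.28, unadjusted p = 0.0222), each with SD and n = 3. E2f7, a repressor that is itself an E2F target, was at 1.52 on the log2 scale, and Rbbp4 and Rbl2, the highest of the list in CPM, at -0.14 and -0.11. Of the G1 cyclins and CDK inhibitors 9 of 15 were higher at a median of 0.17, with 2 higher and 1 lower at an unadjusted p below 0.05. Ccnd1, the D-type cyclin that answers growth signals, had 417, 383 and 377 counts in young and 1638, 897 and 1278 counts in aged aorta (log2 fold change 1.95, SE 0.29, unadjusted p = 0.000251), with DESeq2's adjusted p at 1.72e-06, and edgeR called it without aged replicate 2. Ccnd3 and Ccne1 were at -1.32 and 2.94, the latter on 26, 0 and 2 counts in young libraries, and Ccnd2 and Cdk4, the highest in CPM, at -0.28 and 0.25. For DNA replication 21 of 28 genes were higher at a median of 0.42, with 4 higher and 0 lower at an unadjusted p below 0.05. Beside this list and the G1 list, 5.56% of all genes tested were higher at such a p. Uhrf1, which takes part in copying DNA methylation behind the fork, had 52, 40 and 48 counts in young and 94, 156 and 122 counts in aged aorta (log2 fold change 1.64, SE 0.33, unadjusted p = 0.00152). Mcm2 and Mcm10 were at 0.71 and 2.24 on the log2 scale, the latter on 15, 16 and 6 counts in young libraries. Mcm6 and Pcna, the highest in CPM, were at -0.23 and 0.28. The median of 1.22 for the mitotic genes was above that of each of these lists, a description without a test. The lists were not matched for level, and several hold abundant genes such as Cenpb, Tubb4b and Rbbp4. Among the 52 genes the log2 fold change fell with FPKM (rank correlation -0.51). The 18 low members with fewer than 3 young libraries over the filter level entered the fit mainly through the aged libraries. The correlation was not corrected for this.

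Markers of cells in the samples are given beside the mitotic genes. Over all genes tested, 5.56% were higher and 4.82% lower at an unadjusted p below 0.05, and 7.74% were higher without overlap. All 12 macrophage markers had higher means in aged aorta, 10 at an unadjusted p below 0.05 and 5 without overlap, at a median log2 fold change of 1.39. Their summed level was 229, 222 and 245 CPM in young and 586, 322 and 447 CPM in aged aorta, with Mertk at 99.2 and 101 CPM and Lyz2 at 53.8 and 134 CPM in young and aged means. All aged libraries were above all young ones in this sum, and aged replicate 2 was lowest of the aged group. Of its 322 CPM, Mertk gave 158, a marker with a log2 fold change of 0.02 between the ages. The 6 fibroblast markers were all higher, 4 at an unadjusted p below 0.05 and 2, Pdgfra and Dpt, without overlap. Their sum was 1858, 2128 and 2856 CPM in young and 6578, 1704 and 4830 CPM in aged aorta, led by Col1a1 and Dcn. In aged replicate 2 this sum was below that of every young library, while Pdgfra and Dpt were above every young library there. The 8 smooth muscle markers were all lower, 4 at an unadjusted p below 0.05, with a sum of 32354, 34550 and 40282 CPM in young and 33396, 29191 and 28083 CPM in aged aorta. The part of these cell types in the difference of the mitotic genes was not tested.

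**Figure D5:**
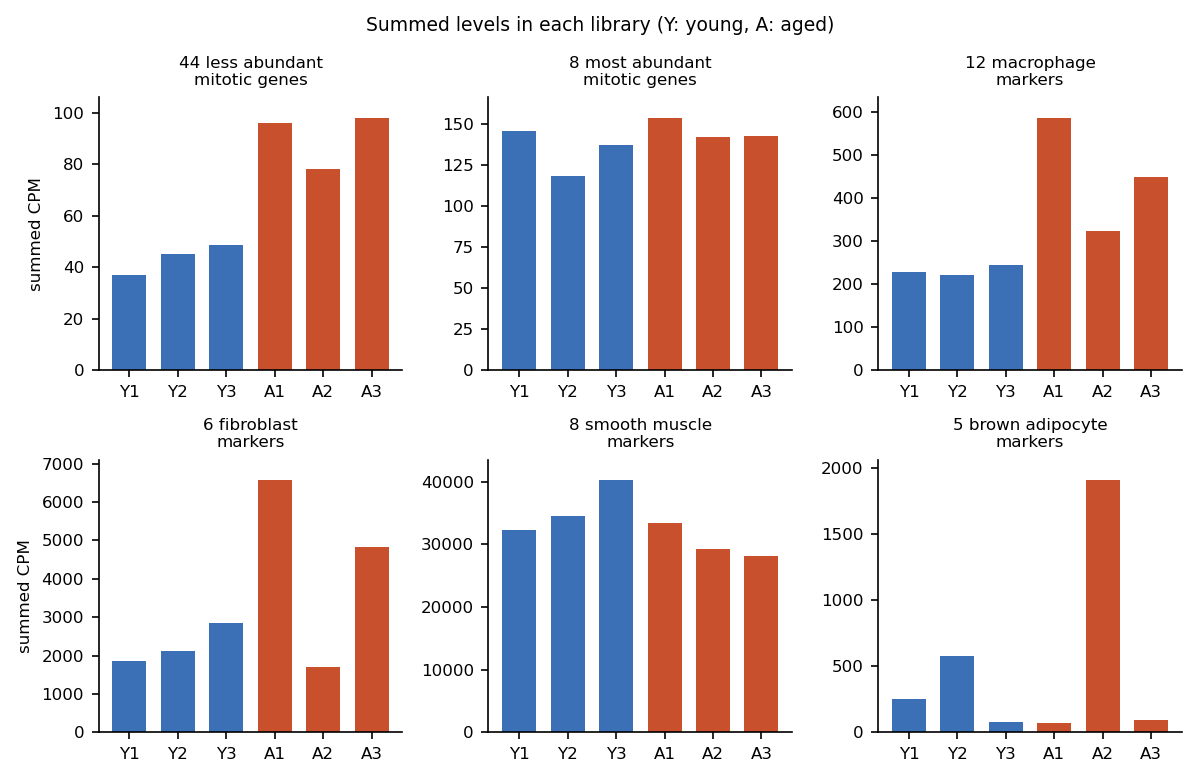
Summed CPM (bars from 0, each panel on its own scale) of the 44 less abundant and the 8 most abundant mitotic genes and of marker lists in each library (Y, young replicates 1 to 3, and A, aged replicates 1 to 3). The sums of the 44 genes and of the macrophage markers separate the ages, those of the 8 abundant genes and of the fibroblast, smooth muscle and brown adipocyte markers do not.

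Markers of several kinds of blood cells and of blood-forming cells were read as well. T and NK cell markers summed to 1.86 to 10.1 CPM in young and 1.62 to 5.17 CPM in aged aorta, with Cd247 and Lck the highest in CPM and Nkg7 at 0 counts in all libraries. Thymocyte markers summed to 4.57 to 17.5 CPM in young and 1.9 to 20.4 CPM in aged aorta, nearly all of it Cd1d1 beside Dntt, with Ptcra at 0. Neutrophil markers (S100a9, Csf3r) summed to 0.372 to 1.49 CPM in young and 2.35 to 4.11 CPM in aged aorta, with Ly6g and Mmp8 at 0. The neutrophil sum, though low, was higher in every aged than in every young library. Markers of hematopoietic progenitors summed to 76.5 to 96.2 CPM in young and 78.7 to 325 CPM in aged aorta, almost all of it Cd34, which fibroblasts and endothelium also express, followed by Kit. Erythroid markers, mostly the globins Hbb-bs and Hba-a1, summed to 431 to 673 CPM in young and 392 to 878 CPM in aged aorta.

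Other tissues near the aorta varied between libraries. Endothelial markers (Pecam1, Vwf) summed to 401 to 489 CPM in young and 342 to 1686 CPM in aged aorta, the highest in aged replicate 3. Brown adipocyte markers (Ucp1, Cidea) summed to 249.5, 578 and 82.5 CPM in young and 73.6, 1909 and 94.3 CPM in aged aorta, and the 7 markers of a separate adipocyte list (Fabp4, Plin4) to 923 to 1730 CPM in young and 925 to 2747 CPM in aged aorta. Cardiac markers (Tnnt2, Ryr2) summed to 85.3 to 340.1 CPM in young and 82.8 to 85.4 CPM in aged aorta, the highest in young replicate 1, and skeletal muscle markers (Ckm, Tnnt3) to 7.62 to 22.8 CPM in young and 9.48 to 17.9 CPM in aged aorta. Schwann cell markers (Pmp22, Prx) summed to 74.9 to 198 CPM in young and 186 to 230.3 CPM in aged aorta, and those of epithelium and mesothelium (Krt18, Upk3b) to 25.3 to 83.2 CPM in young and 12.8 to 76.5 CPM in aged aorta. None of these sums separated the young from the aged libraries.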

How the data were processed

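RNA of 6 aorta libraries (SMARTER mRNA-Seq kit) had been sequenced, and 3 young were compared with 3 aged mice as labelled. The authors deposited a table of read counts per gene, without normalization, and a table of FPKM. The submitters' processing notes name the build mm10, and the aligner, the counting tool, the annotation and the use of strand are not given in the sources used here. Nothing in the labels says more of how replicates were taken, so p-values measure the spread between these samples. The columns of no known sample numbered 0. Coordinates and exon overlaps come from GENCODE M21 (GRCm38).

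Counts were analysed in R 4.3.3 with edgeR 4.0.16, using filterByExpr by group (minimum count 10, minimum total 15), TMM and the quasi-likelihood F test without covariates. P-values were adjusted by Benjamini-Hochberg across the whole set of tested genes (threshold 0.05). Alternatives were DESeq2 1.42.0, RLE size factors, limma 3.58.1 (log2 of FPKM plus 1 or plus 0.1), 2 other filters, robust fitting, a replicate block, removal of mitochondrial genes and leaving out libraries. Totals of 31049632 to 45832185 counts limit precision for low genes, and counting error was not separated from differences between mice.

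The 52 members and all lists were chosen with earlier results of these data known. All members are named, with every library's value for those at an unadjusted p below 0.05, for those without overlap and for the 8 most abundant by FPKM. Of each pathway list the 3 genes with the smallest p and the 2 with the highest mean CPM are named, and of each marker list the 2 with the highest mean CPM, a rank that is not corrected for length. The result of 1 marker list is not reported here. Of 83 symbols of other mitotic genes, 78 were found in the table. The sequences are those of RefSeq promoter windows (GRCm38.p6).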

Additional observations from a re-analysis of the deposited data

How the results depend on the processing

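The number of members higher in aged aorta lay between 47 and 51 with single libraries left out, at 44 and 45 with limma (pseudocount 0.1 and 1), and at 33 of 36 where at least 10 counts were required in every library. DESeq2 called 338 genes and 6 members where edgeR called 0. With 1 library left out edgeR called between 0 and 110 genes, the latter without aged replicate 2, and 0 members. The count of members at an unadjusted p below 0.05, 22, lay between 9 (without young replicate 1 or aged replicate 1) and 23 with 1 library left out, and was 11 without aged replicate 3, 8 with limma and a pseudocount of 1, and 12 without both young replicate 1 and aged replicate 2, which was chosen after seeing the data. Their median log2 fold change of 1.22 lay between 1.06 (without young replicate 1) and 1.41 (without young replicate 2), and was 1.04 with at least 10 counts in every library, 0.56 with limma and a pseudocount of 0.1, and 0.15 with a pseudocount of 1, which shrinks differences of genes under 1 FPKM. Limma moved the median of all genes to -0.19 and -0.12 (pseudocount 0.1 and 1), where edgeR gave 0.02. With a replicate block 49 members were higher, with a median of 1.34, 20 had an unadjusted p below 0.05 and 0 were called, and it changed no other call. Deviations of same-numbered libraries correlated at 0.077, 0.142 and 0.142; not all were above 0.1, and replicate numbers were not taken as pairs.

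The log2 fold change of 44 members was positive or negative throughout, and 8 turned. With limma (pseudocount 0.1, then 1) these were Mad2l1 (-0.059, -0.0245), Pttg1 (-0.064, -0.061), Incenp (-0.081, -0.0526), Ect2 (-0.086, -0.015) and, with 0.1 alone, Bub1b (-0.00225), and outside the members Anapc2 (-0.21, -0.20), which was also at -0.00140 with no filter. Without both libraries Bub1b was at -0.13, Ect2 at -0.50 and Tubb4b at 0.27. With 1 library left out Foxm1 lay between -0.042 and 1.03, Bub1b between -0.21 and 0.68, Ect2 between -0.37 and 0.35, Anln between -0.26 and 0.053, Smc4 between -0.16 and 0.083, Tubb4b between -0.46 and 0.15 and Anapc2 between -0.0447 and 0.12. The cause was not tested. Low counts, with a median over the members of 26.5 to 64 per library, limit what single values can show.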

Other observations

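Promoter matches were set beside the age difference for the 52 genes, a grouping chosen after seeing the data and given without a test. The 26 genes with TTTGAA and CCAAT in their windows had a median log2 fold change of 1.31, with 12 at an unadjusted p below 0.05, and ranged from 0.08 for Ect2 to 2.69 for Hmmr. The 8 genes with neither, Nusap1, Nuf2, Melk, Ncaph, Birc5, Mybl2, Pttg1 and Mad2l1, had a median of 0.89 with 3 at such a p. CCAAT alone was found for 3 genes (median 1.95) and TTTGAA alone for 4 (median 1.30). The 11 genes without a window in the table had a median of 1.09.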
